A study of Mus musculus with 15 samples.

Results

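The genes described here are 10 transcripts of the somatic cells of the ovarian follicle, measured in libraries made from isolated mouse oocytes: Fshr, Inha, Inhba, Amh, Amhr2, Cyp11a1, Cyp19a1, Foxl2, Has2 and Nr5a2. They were taken by name as a measure of RNA carried over from granulosa and cumulus cells, and all 10 were found among the 53700 genes of the count tables. Has2 was higher in Padi6 knockout oocytes than in their heterozygous controls, and no other gene of the list passed the edgeR test between knockout and heterozygote. Nr5a2 and Cyp19a1 were by far the most abundant and did not follow genotype. The hormone, receptor and Foxl2 transcripts were low, Amh near the limit of detection, with mean levels below those of the heterozygotes in the Padi6 knockout and above them in the Tle6 knockout, none of which passed. The oocytes were at the germinal vesicle stage, that is, not yet back in meiosis, and each library held the polyadenylated RNA of 15 of them. Padi6 -/- (KO, 3 biological replicates) was compared with Padi6 +/- (het, 3 replicates) on the FVB/N background, and Tle6 -/- (KO, 4 replicates) with Tle6 +/- (het, 2 replicates) on the C57BL/6J background. PADI6 and TLE6 are oocyte proteins needed for the cytoplasmic lattices, the fibrous arrays that fill the oocyte. Tle6 KO replicate 4 and Tle6 het replicates 1 and 2 each had technical libraries A and B, so 15 libraries stand for 12 biological replicates. The reference of each line was a heterozygote, which carries 1 targeted allele. The labels do not name the animals behind a replicate, the age of the females or the structure of the alleles. A p-value here therefore covers the spread among these samples only, and that spread may be technical.

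Granulosa cells line the follicle, and the cumulus cells are those that enclose the oocyte and send projections through its coat. Follicle-stimulating hormone acts on granulosa cells through the receptor FSHR and drives oestrogen synthesis by the aromatase CYP19A1. The same cells secrete inhibin (subunits from Inha and Inhba), activin (from Inhba) and anti-Müllerian hormone, which signals through AMHR2. CYP11A1 cuts the side chain of cholesterol to make pregnenolone, FOXL2 is a forkhead transcription factor that keeps granulosa cell identity, NR5A2 is a nuclear receptor needed for ovulation, and HAS2 makes the hyaluronan of the expanding cumulus. Oocytes are usually freed from these cells before RNA is prepared, and the same transcripts in an oocyte library can come from remnants of them or from the oocyte. In such bulk samples fewer cells of a type and less RNA per cell cannot be told apart.

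Promoter windows of RefSeq (GRCm38.p6, 250 bases before to 50 bases after the gene's start) were found for 8 of the 10 genes, in 12 windows. Amh and Has2 were not matched. Each window was searched on both strands for AAGGTCA, an element of the NR5A family to which NR5A2 belongs, TGACG, part of the cyclic AMP response element, and TAAACA, the forkhead core. No motif contains another. AAGGTCA stood in 1 of the 12 windows (8.33%), that of Amhr2, against 4.72% of all 32851 windows. TGACG stood in 1 window (8.33%), that of Cyp11a1, against 20.8% of all windows, and TAAACA in 0 of 12, against 13.4%. A match says that the letters are present, not that a factor binds there. The windows that held a motif are shown, with the motif in capitals. Amhr2 and Cyp11a1 are both among the genes whose KO and het levels did not overlap in the Padi6 line. So is Fshr, whose window held none of these motifs, and a link between motif and level was not tested. The Amhr2 window is chr15:102445117-102445416 on the plus strand, with the motif from base 20 of the window. The Cyp11a1 window is chr9:57997774-57998073 on the plus strand, with the motif as its reverse complement from base 201.
Amhr2: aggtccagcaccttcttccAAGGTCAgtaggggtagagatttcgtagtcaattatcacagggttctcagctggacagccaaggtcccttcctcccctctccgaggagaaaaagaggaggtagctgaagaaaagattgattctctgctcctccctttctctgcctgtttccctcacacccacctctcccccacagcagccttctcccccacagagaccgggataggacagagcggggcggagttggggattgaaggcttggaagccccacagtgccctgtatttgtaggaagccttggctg
Cyp11a1: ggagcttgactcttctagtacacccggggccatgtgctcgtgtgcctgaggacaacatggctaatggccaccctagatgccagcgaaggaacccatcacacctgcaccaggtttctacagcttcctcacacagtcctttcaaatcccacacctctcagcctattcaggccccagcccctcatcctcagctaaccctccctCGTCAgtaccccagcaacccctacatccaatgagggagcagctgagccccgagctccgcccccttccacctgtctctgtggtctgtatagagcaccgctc

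Libraries held 30100177 to 74947533 counts in genes, so that a count of 0 allows a level of up to 0.04 to 0.0997 CPM (counts-per-million of gene counts), depending on the library. The targeted genes followed the labels: Padi6 averaged 23.5 ± 3.8 CPM in Padi6 KO and 1780 ± 61.8 CPM in Padi6 het (SD, n = 3 each), and Tle6 averaged 80.3 ± 14.1 CPM in Tle6 KO (n = 4) and 382 ± 27.2 CPM in Tle6 het (n = 2). The oocyte markers Gdf9 and Zp3 averaged 1990 and 1160 CPM per kilobase of exonic length. The 2 technical libraries of a replicate correlated over 13298 genes at r = 0.998 for Tle6 KO replicate 4 and r = 0.999 for Tle6 het replicate 1, but at r = 0.938 for Tle6 het replicate 2. In that replicate 6 of the 10 genes differed between A and B beyond counting error (95% exact binomial interval of the ratio, which covers counting error only), while none did in the other 2 pairs. Fshr had 13 counts in A and 1 in B, Inha 12 and 2, and Cyp11a1 80 and 1. Has2 went the other way, with 55 counts in A and 399 in B, a CPM ratio of 0.254 (0.188 to 0.337). Nr5a2 was 1.56 times as high in A (1.48 to 1.65) and Cyp19a1 1.24 times (1.18 to 1.3). Padi6 het replicate 3 also stood apart, with 40 counts of spike-in transcripts, against 4009 to 13772 in the other 5 Padi6 libraries. It was the highest of the 6 in Inha, Inhba and Cyp11a1 and the lowest in Has2, and the part of its preparation in these values was not tested. Tests used the sum of A and B, and values without either library are given where they change a call or a direction.

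**Figure D1:**
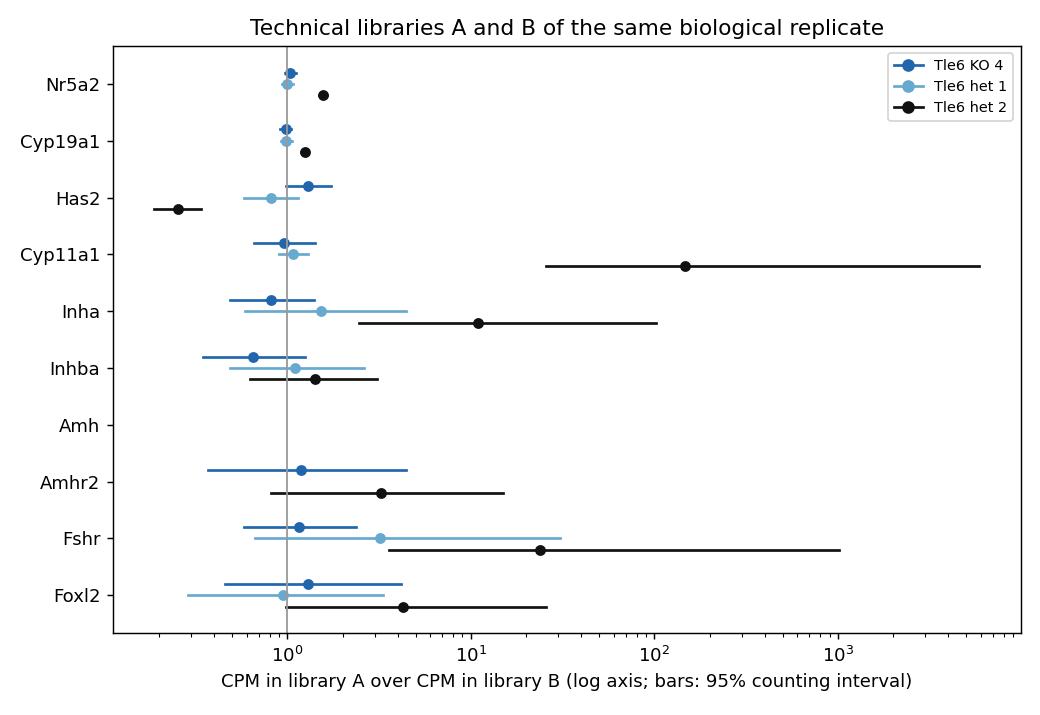
Ratio of CPM in library A over CPM in library B (x axis, log scale) for the listed genes (y axis) in the 3 biological replicates with technical libraries; points are ratios and bars 95% counting intervals. The black points of Tle6 het replicate 2 lie away from 1 for Nr5a2, Cyp19a1, Has2, Cyp11a1, Inha and Fshr, up to 147 for Cyp11a1, while the blue intervals all include 1; genes with no counts in a library have no point.

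The 10 genes stood at very different levels. Per length, Nr5a2 averaged 9.72 CPM per kilobase over the 12 biological replicates (lowest 5.65, highest 12.6) and Cyp19a1 8.19 (4.64 to 11.6), at percentiles 82.0 and 80.2 of 21929 protein-coding genes. Cyp11a1 (1.17 CPM per kilobase) and Has2 (1.1) lay at percentiles 59.3 and 58.7. The other 6 lay lower, with Inha at 0.487, Amhr2 at 0.169, Fshr at 0.133, Inhba at 0.0899, Foxl2 at 0.0565 and Amh at 0.0272 CPM per kilobase, at percentiles 51.9 to 31.9. Each of these 6 was at or below 2.47 CPM in every library. The division into abundant, middle and low genes was made after their values were seen and has no test. Nr5a2 and Cyp19a1 together made up 75.2 to 96.3% of the summed CPM of the 10 genes, depending on the library, so a sum over the 10 follows those 2 genes and says little of the others.

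**Figure D2:**
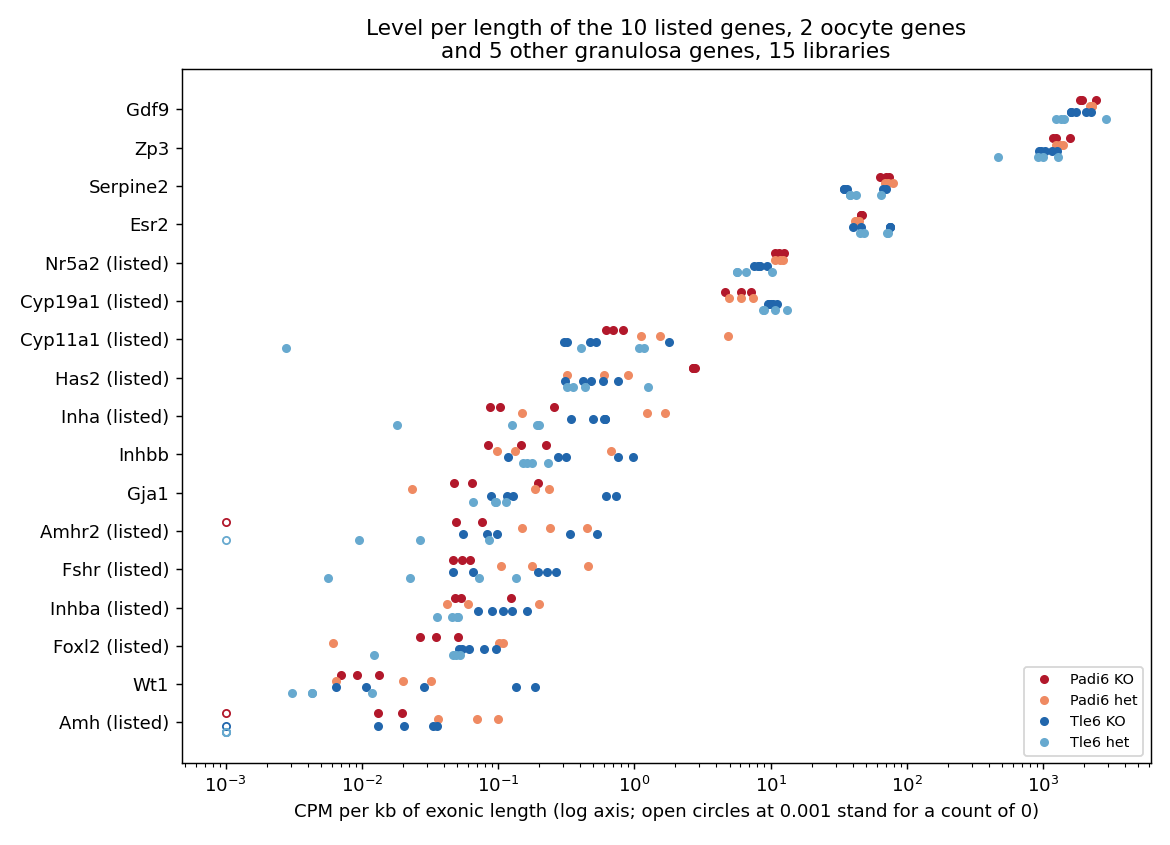
Level per length (x axis, CPM per kilobase of exonic length, log scale) of the 10 listed genes, 2 oocyte genes and 5 other granulosa genes (y axis, ordered by mean) in each of the 15 libraries, coloured by group. Nr5a2 and Cyp19a1 form a pair above the other listed genes in every library, and open circles mark a count of 0 for Amhr2 and Amh.

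Among the secreted ligands, Inha, the subunit that sets inhibin apart from activin, had 0.128, 0.377 and 0.153 CPM in Padi6 KO replicates 1 to 3, against 0.221, 1.83 and 2.47 CPM in Padi6 het. It had 0.505, 0.894 and 0.88 CPM in Tle6 KO replicates 1 to 3, with 0.732 and 0.897 CPM in the libraries of replicate 4, against 0.286, 0.187, 0.295 and 0.0267 CPM in Tle6 het libraries 1A, 1B, 2A and 2B. Padi6 het replicates 2 and 3 were high and replicate 1 lay among the KO values, while all 4 Tle6 KO replicates lay above both Tle6 het replicates. The fitted log2 fold change, KO over het, was -2.75 ± 0.76 in the Padi6 line (SE; edgeR quasi-likelihood test, adjusted p = 0.0925) and 1.92 ± 0.52 in the Tle6 line (adjusted p = 0.103), and neither passed the threshold of 0.05. Without Padi6 het replicate 3 the first was -2.17.

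Inhba, the shared subunit of activin A and inhibin A, had 0.342, 0.787 and 0.306 CPM in Padi6 KO, against 0.381, 0.27 and 1.28 CPM in Padi6 het. These groups overlapped, and het replicate 3 stood highest. It averaged 0.739 ± 0.228 CPM in Tle6 KO (SD, n = 4), from 0.546 to 1.03, and 0.285 ± 0.0368 CPM in Tle6 het (n = 2), at 0.311 and 0.259. The Tle6 groups did not overlap, but the log2 fold change of 1.21 ± 0.47 did not pass (adjusted p = 0.217), and neither did that of -0.42 ± 0.62 in the Padi6 line (adjusted p = 0.773), which was 0.59 without het replicate 3.

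Amh, the hormone of growing follicles, was near the limit of detection. It had 0, 2 and 1 counts in Padi6 KO, against 3, 8 and 7 counts in Padi6 het, and 1, 2 and 4 counts in Tle6 KO replicates 1 to 3 with 3 and 0 in the libraries of replicate 4, against 0 counts in all 4 Tle6 het libraries. Padi6 het replicates held the most, with a mean of 0.114 CPM. The gene did not pass the filter on low counts in any comparison and was not tested, and no fold is given against Tle6 het, where it is at 0.

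Of the receptors, Fshr had 0.128, 0.148 and 0.109 CPM in Padi6 KO, against 1.08, 0.249 and 0.414 CPM in Padi6 het. The 3 KO values lay close together and below every het value, and the highest het value was 54 counts in 1 library. Fshr stood at 0.154, 0.624, 0.11 and 0.509 CPM in Tle6 KO replicates 1 to 4, against 0.122 and 0.121 CPM in Tle6 het replicates 1 and 2, so that KO replicates 2 and 4 were high and replicate 3 lay below both hets. Neither the log2 fold change of -2.13 ± 0.59 in the Padi6 line (adjusted p = 0.091) nor that of 1.35 ± 0.8 in the Tle6 line (adjusted p = 0.396) passed. The first was -1.34 without Padi6 het replicate 1, and the second 0.67 without library B and 2.11 without library A of Tle6 het replicate 2.

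Amhr2, the receptor of anti-Müllerian hormone, had 0, 0.0984 and 0.153 CPM in Padi6 KO, against 0.301, 0.894 and 0.481 CPM in Padi6 het. It had 0.11, 0.674, 1.06 and 0.186 CPM in Tle6 KO replicates 1 to 4, against 0.0111 and 0.0951 CPM in Tle6 het replicates 1 and 2. The groups of both lines were apart, with the KO below the het in the Padi6 line and above it in the Tle6 line. In the Tle6 line this held with the technical libraries added. Library A of het replicate 2 alone had 0.172 CPM, above KO replicate 1. The log2 fold changes of -2.77 ± 0.82 (adjusted p = 0.109) and 2.98 ± 1.12 (adjusted p = 0.202) did not pass. Leaving out Tle6 het replicate 1 gave 2.18 in the Tle6 line, and leaving out Tle6 het replicate 2 gave 5.14. The Tle6 het libraries held few counts, with 1 and 0 in those of replicate 1 and 7 and 4 in those of replicate 2.

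Cyp11a1, the first enzyme of steroid synthesis, had 3.32, 2.97 and 3.98 CPM in Padi6 KO, against 7.46, 5.36 and 23.4 CPM in Padi6 het. Padi6 KO replicates stayed within a narrow band below the hets, and het replicate 3 was the highest library of the series. The log2 fold change of -1.81 ± 0.48 did not pass (adjusted p = 0.08), and it was -0.87 without het replicate 3. In the Tle6 line Cyp11a1 had 2.26, 8.63, 2.53 and 1.49 CPM in KO replicates 1 to 4, against 5.46 and 0.7 CPM in het replicates 1 and 2. These groups overlapped in part, with KO replicate 2 above both hets and het replicate 2 below every KO. The log2 fold change was 0.11 ± 0.82 (adjusted p = 0.956), and it was -0.14 without library B of het replicate 2, in which the gene had 1 count.

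Cyp19a1, the aromatase, had 32.7, 21.0 and 27.7 CPM in Padi6 KO, against 33.8, 22.3 and 27.7 CPM in Padi6 het. It had 47.1, 45.2, 50.8 and 43.6 CPM in Tle6 KO, against 40.2 and 52.7 CPM in Tle6 het. The KO and het groups of each line lay over each other, with log2 fold changes of -0.02 ± 0.19 in the Padi6 line (adjusted p = 0.972) and -0.15 ± 0.2 in the Tle6 line (adjusted p = 0.715). In CPM, every Tle6 replicate lay above every Padi6 replicate. Between the hets, Cyp19a1 was higher in the Tle6 line, with 46.4 ± 8.82 CPM in Tle6 het (n = 2) and 27.9 ± 5.77 CPM in Padi6 het (n = 3). The fitted log2 fold change was 1.04 ± 0.22 (edgeR, adjusted p = 0.00352). The fit rescales library sizes (TMM) and the CPM do not, so the ratio of these means differs from the fitted value.

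Of the transcription factors, Nr5a2 had 74.4, 68.0 and 63.9 CPM in Padi6 KO, against 72.2, 69.3 and 63.1 CPM in Padi6 het. It had 44.3, 55.7, 48.3 and 48.9 CPM in Tle6 KO, against 33.4 and 46.5 CPM in Tle6 het. It showed the reverse order of Cyp19a1 between the lines, with every Padi6 replicate above every Tle6 replicate in CPM, which are not rescaled as in the fit. KO and het did not differ beyond their spread, at log2 fold changes of 0.03 ± 0.10 (adjusted p = 0.904) and 0.14 ± 0.20 (adjusted p = 0.749). Between the hets the fitted log2 fold change, Tle6 over Padi6 and with rescaled library sizes, was -0.46 ± 0.17 and missed the threshold (adjusted p = 0.0547). Line, strain background and targeted allele cannot be told apart in the comparison of the hets, in which 28.5% of 21392 genes passed, 15.9% higher and 12.7% lower in Tle6 het.

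Foxl2 had 0.114, 0.164 and 0.0875 CPM in Padi6 KO, against 0.0201, 0.353 and 0.332 CPM in Padi6 het, where replicate 1 held 1 count. It had 0.176, 0.169, 0.316 and 0.236 CPM in Tle6 KO, against 0.156 and 0.0864 CPM in Tle6 het. The Padi6 groups overlapped and the gene did not pass the filter there, while the Tle6 groups were narrowly apart at a log2 fold change of 0.75 ± 0.62 (adjusted p = 0.553). Library A of Tle6 het replicate 2 alone had 0.172 CPM, above KO replicate 2, so the Tle6 groups overlapped without library B.

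Has2, the hyaluronan synthase of cumulus expansion, was the gene of the list that passed the test between KO and het. It had 11.4, 11.4 and 11.7 CPM in Padi6 KO (800, 692 and 536 counts), against 3.83, 2.54 and 1.36 CPM in Padi6 het (191, 122 and 82 counts). The KO replicates lay within a narrow band, above every het. The log2 fold change was 2.19 ± 0.31 (adjusted p = 0.0109), and it passed under each of the 10 alternatives tried, at 1.88 (without het replicate 3, adjusted p = 0.0264) to 2.59. It had 2.02, 1.32, 1.77 and 2.95 CPM in Tle6 KO, against 1.65 and 3.92 CPM in Tle6 het. These overlapped, with a log2 fold change of -0.62 ± 0.46 (adjusted p = 0.501) that turned to 0.36 without library B of Tle6 het replicate 2, which alone had 5.32 CPM. Of 10 other genes of cumulus expansion, 3 passed the filter in the Padi6 line and 0 passed the edgeR test (0 at an unadjusted p under 0.05), with a median log2 fold change of -0.22 over these 3. The genes that missed the filter had few counts and were not tested. Summed over replicates, Padi6 KO against Padi6 het, Cd44 had 18 and 2 counts, Adamts1 14 and 1, and Btc 8 and 1. Tnfaip6 had 7 and 4, Ptx3 5 and 2, Areg 0 and 1, and Ereg 0 in both. Most Cd44 counts were in Padi6 KO replicate 1, at 0.228 CPM, against 0.0164 and 0.0219 CPM in KO replicates 2 and 3. Adamts1 was at 0 CPM in Padi6 KO replicate 2. The sum over all 10 was 1.67 ± 0.505 CPM in Padi6 KO and 1.41 ± 0.61 CPM in Padi6 het.

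**Figure D3:**
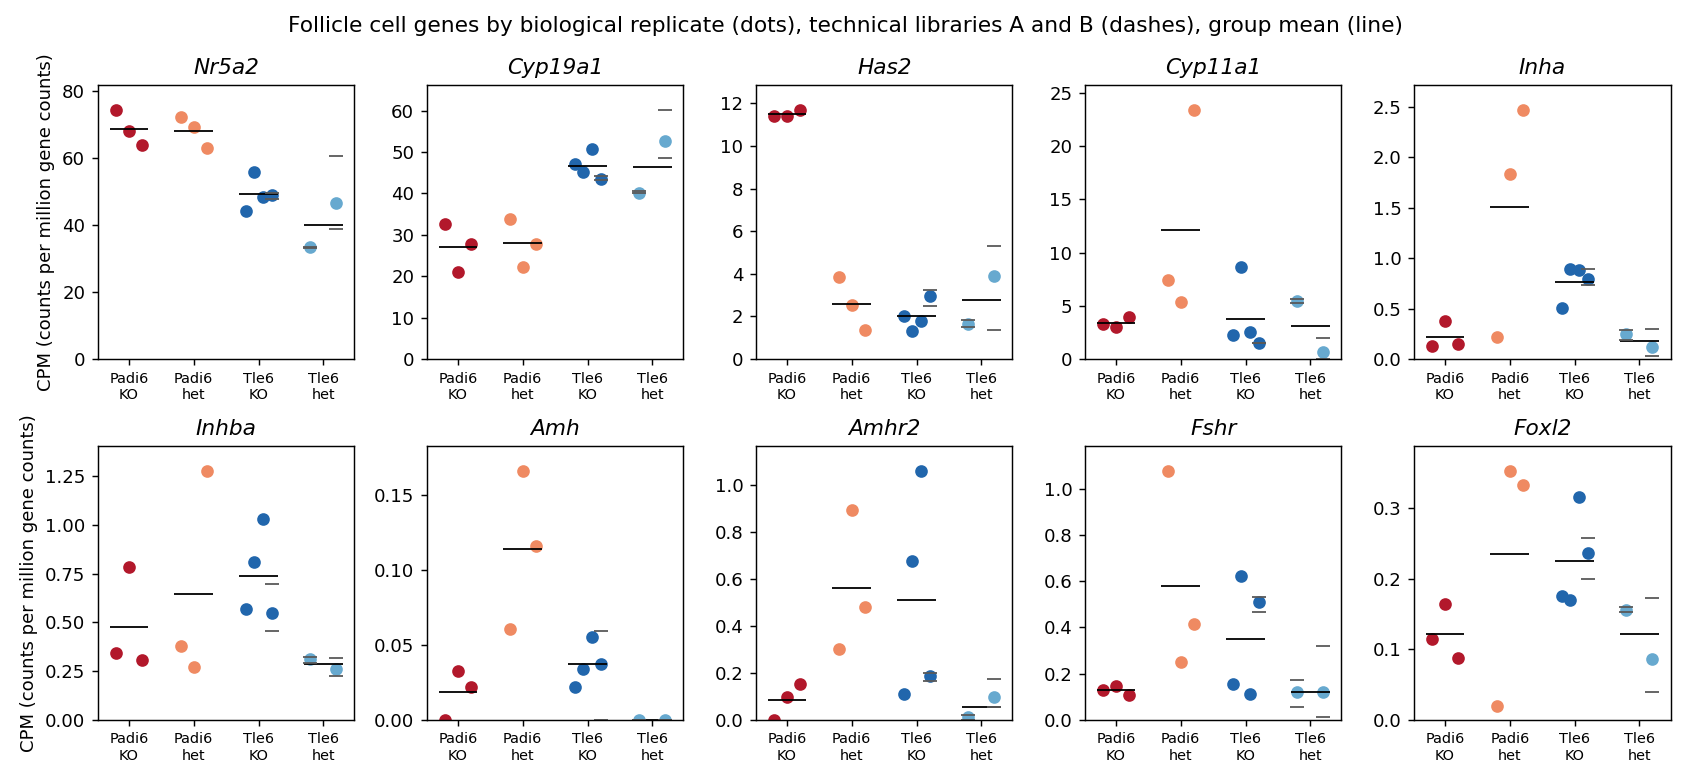
CPM (y axis, from 0, a scale for each gene) of the 10 listed genes in the 4 groups; dots are biological replicates, dashes technical libraries A and B, and lines group means. Has2 in Padi6 KO stands at 11.4 to 11.7 CPM above all other groups, the replicates of Nr5a2 and Cyp19a1 separate by line and overlap between KO and het, and Cyp11a1 has single high replicates.

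In the Padi6 line 1 of the 8 genes that passed the filter on low counts was called higher (Has2), against 1.69% of all 18228 genes tested, and 0 were called lower by edgeR, against 0.724%. At an unadjusted p under 0.05, 4 of the 8 were lower (Fshr, Inha, Amhr2 and Cyp11a1), against 9.19% of all genes tested, and 1 was higher, against 9.45%. DESeq2 called 3 of the 4 lower after adjustment (Fshr, Inha and Amhr2), and 2.87% of the 17636 genes to which it gave an adjusted p. Of the 8, 6 had negative log2 fold changes, and their median was -1.11, against -0.01 over all genes tested. KO lay below het without overlap for 3 of the 8 (37.5%; Fshr, Amhr2 and Cyp11a1), against 12.9% of all genes tested, and above it for 1 (12.5%; Has2), against 10.7%. Amh, untested, was below as well. Fshr and Amhr2 passed the filter through the het replicates alone, as their KO values, at most 0.148 and 0.153 CPM, were too low for it. The edgeR counts of lower genes, the counts without overlap and the median thus include genes tested only because het was high. They are not independent of the filter. In the Tle6 line 0 of 9 tested genes were called by edgeR, against 1.62% of 20276 genes in either direction (0.587% higher and 1.04% lower). At an unadjusted p under 0.05, 3 of the 9 were higher (Inha, Inhba and Amhr2), against 9.48% of all genes tested, and 0 were lower, against 9.51%. DESeq2 called 1 higher after adjustment (Inha), and 3.81% of the 21451 genes to which it gave an adjusted p. Of the 9, 7 had positive values and the median was 0.75, against 0.06 over all genes tested. KO lay above het without overlap for 4 of the 9 (44.4%; Inha, Inhba, Amhr2 and Foxl2), against 20.5% of all genes tested, and below it for 0, against 9.65%. For Amhr2 and Foxl2 this held with the technical libraries added, but not with library A of Tle6 het replicate 2 alone. In the Tle6 line Fshr and Amhr2 passed the filter through KO replicates alone, with het values of at most 0.122 and 0.0951 CPM. The counts of higher and positive genes and the median that include them are therefore not independent of the filter. In either direction 30.1% of all genes tested did not overlap, and 23.6% in the Padi6 line.

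The difference between the effects of the 2 knockouts (Tle6 minus Padi6) was tested in 1 fit over all 12 replicates, in which 4.32% of 21392 genes passed, 1.31% with a higher and 3.01% with a lower value in the Tle6 line. It passed for 2 of 9 listed genes, 1 in each direction. For Inha it was 4.63 ± 1.05 on the log2 scale (adjusted p = 0.0274), and for Has2 it was -2.86 ± 0.58 (adjusted p = 0.0159). Both calls were lost without library B of Tle6 het replicate 2, with 4.19 for Inha (adjusted p = 0.0609) and -1.83 for Has2 (adjusted p = 0.112), and with library A of each pair alone (adjusted p = 0.0739 and 0.154). The call of Inha was also lost without Padi6 het replicate 2 (adjusted p = 0.0629) or 3 (0.0736) or Padi6 KO replicate 1 (0.0593) or 3 (0.0717), and both calls without Tle6 het replicate 2 as a whole (0.112 for Inha and 0.0849 for Has2). The differences of 5.68 ± 1.55 for Amhr2 (adjusted p = 0.056) and 3.45 ± 1.05 for Fshr (adjusted p = 0.0821) did not pass. Between the hets Inha was lower in the Tle6 line by a log2 fold change of -2.75 ± 0.81 (adjusted p = 0.0221), a comparison that shares its Padi6 het samples with the Padi6 KO comparison and that missed the threshold without library B of Tle6 het replicate 2 (adjusted p = 0.0612), Padi6 het replicate 2 (0.0503) or 3 (0.0805) or Tle6 het replicate 1 (0.0552) or 2 (0.152).

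**Figure D4:**
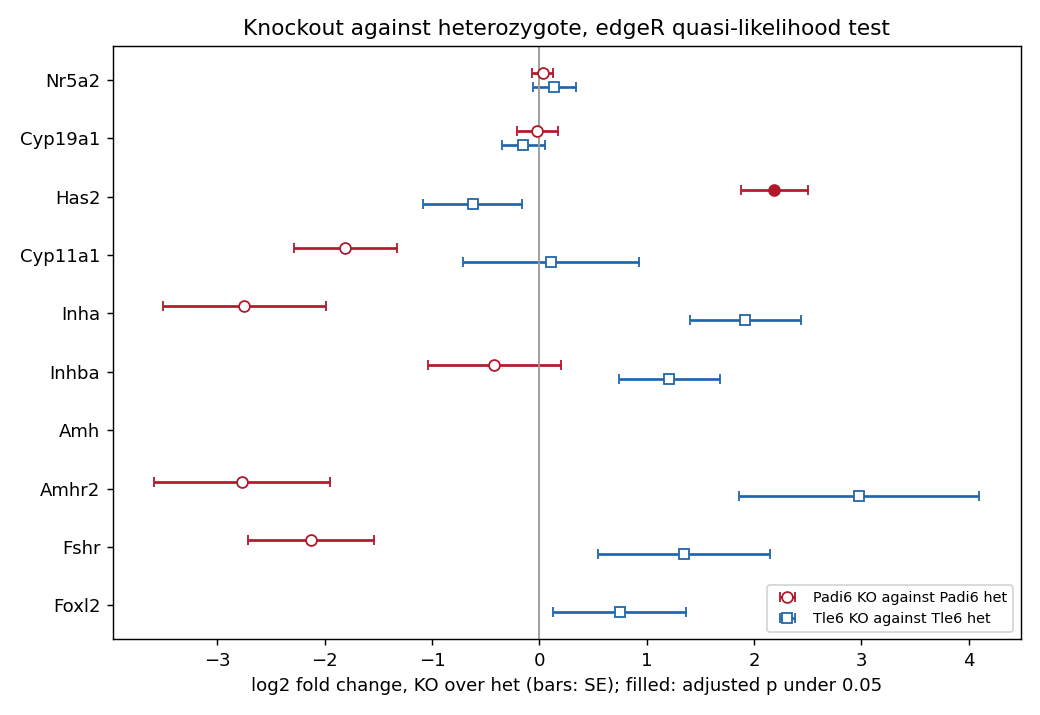
Fitted log2 fold change, KO over het (x axis), of each listed gene (y axis) in the Padi6 line (red circles) and the Tle6 line (blue squares), with bars of 1 standard error; filled points passed an adjusted p of 0.05. Has2 in the Padi6 line is the filled point, Amh was tested in neither line and Foxl2 in the Tle6 line alone.

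Summed over all 10 genes, the level was 112 ± 9.44 CPM in Padi6 KO and 114 ± 9.72 CPM in Padi6 het, and 104 ± 7.72 CPM in Tle6 KO and 93.0 ± 16.2 CPM in Tle6 het, differences within the spread of the groups. The 6 low genes alone summed to 0.712, 1.61 and 0.831 CPM in Padi6 KO, against 2.07, 3.76 and 5.09 CPM in Padi6 het. They summed to 1.54, 3.2 and 3.45 CPM in Tle6 KO replicates 1 to 3 and to 2.24 and 2.43 CPM in the libraries of replicate 4, against 0.952, 0.695, 1.28 and 0.36 CPM in the 4 Tle6 het libraries. These sums, which have no test, did not overlap in either line, with KO below het in the Padi6 line and above it in the Tle6 line. Within the Padi6 line each of the 6 was highest in a het, and not in the same one: Fshr in replicate 1, Amh, Amhr2 and Foxl2 in replicate 2, and Inha and Inhba in replicate 3. Within the Tle6 line each was highest in KO replicate 2 (Fshr and Inha) or KO replicate 3 (Inhba, Amh, Amhr2 and Foxl2). These 2 libraries had 6.7 and 7.29% of reads in no feature, against 5.39 to 5.84% in the other Tle6 libraries. Multiply aligned reads were 14.51% in both, against 12.09 to 13.66%. Padi6 het replicate 2 had the highest share in no feature of its line, 6.97%. The part of library quality in these values was not tested.

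**Figure D5:**
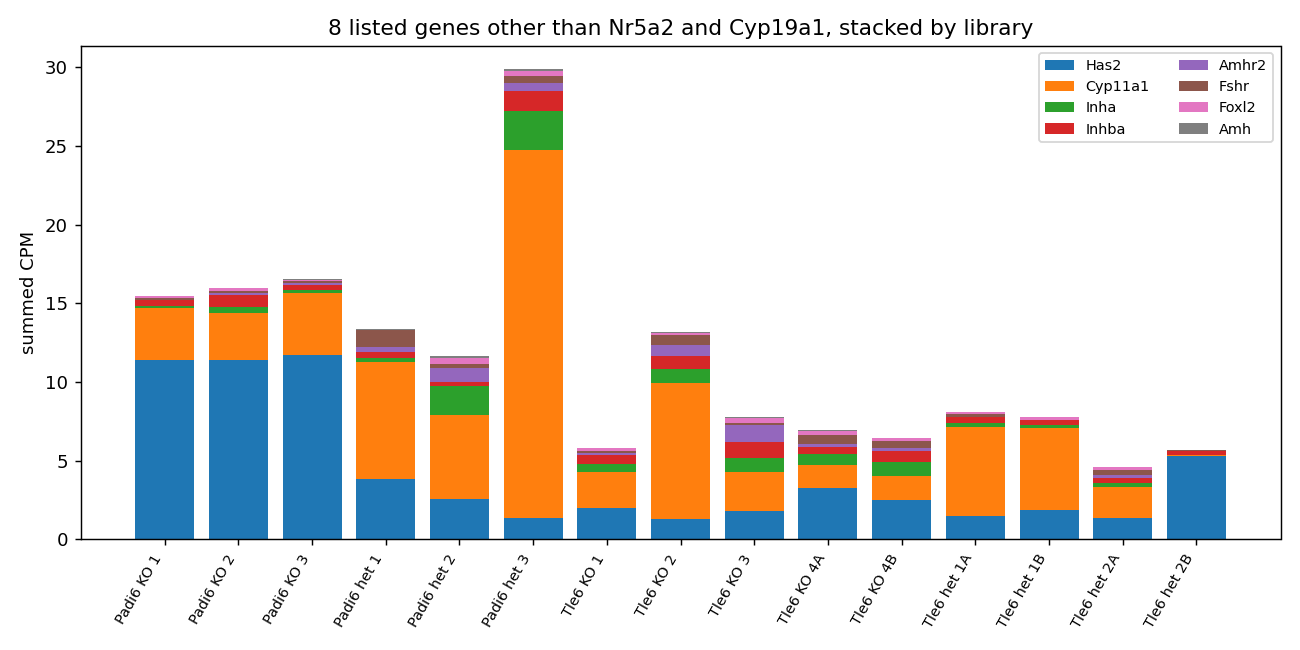
Summed CPM (y axis) of the 8 listed genes other than Nr5a2 and Cyp19a1, stacked by gene, in each of the 15 libraries (x axis). Has2 makes up most of the bar in the 3 Padi6 KO libraries and in Tle6 het 2B, and Cyp11a1 lifts Padi6 het 3 to 29.8 CPM and Tle6 KO 2 to 13.2 CPM.

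Other granulosa genes, a list of 20, stood at 796 ± 38.8 CPM in Padi6 KO and 813 ± 38.1 CPM in Padi6 het, and at 672 ± 112 CPM in Tle6 KO and 604 ± 8.44 CPM in Tle6 het. Serpine2, a serpin, and Esr2, the oestrogen receptor beta, made up 91.3 to 94.8% of that sum, and their levels per length (60.5 and 52.2 CPM per kilobase) were above those of all 10 listed genes. Serpine2 was at 581 and 558 CPM in Tle6 KO replicates 2 and 3 and at 288 to 301 CPM in the other Tle6 KO libraries. It was at 536 CPM in library A of Tle6 het replicate 2 and at 316 to 350 CPM in the other Tle6 het libraries. Esr2 went the other way, at 155 and 137 CPM in KO replicates 2 and 3 and at 254 to 255 CPM in the other Tle6 KO libraries. It was at 152 CPM in Tle6 het library 2A and at 165 to 245 CPM in the other Tle6 het libraries. Oocyte genes were split in both directions. Gdf9 was at 4550 and 4200 CPM in KO replicates 2 and 3, against 3270 to 3530 CPM in the other Tle6 KO libraries. Zp3 was at 1240 and 1280 CPM, against 1370 to 1680 CPM. Without Serpine2, Esr2, Gata4 and Gata6, 16 genes summed to 9.59 ± 1.58 CPM in Padi6 KO and 15.5 ± 7.27 CPM in Padi6 het, and to 20.1 CPM in Tle6 KO (11.1 to 30.5) and 12.8 CPM in Tle6 het (12.4 and 13.1). Tle6 KO replicates 2 and 3 were the 2 highest libraries of this sum, at 26.8 and 30.5 CPM, with Wt1, a transcription factor of granulosa cells, at 0.843 and 1.16 CPM (0.199 or less in every other library) and Gja1, the gap junction protein connexin 43, at 6.32 and 7.54 CPM (2.41 or less elsewhere). Not all of the 16 were high there: Lhcgr was at 0.0843 and 0.22 CPM, against 0.158 to 0.242 CPM in the other Tle6 KO libraries. No gene of this list passed in either line by edgeR. In the Padi6 line 14 were tested, with a median log2 fold change of -0.51. At an unadjusted p under 0.05, 1 was higher and 2 were lower, against 9.45% and 9.19% of all genes. Of 18 tested in the Tle6 line the median was 0.14, with 2 higher and 1 lower at that level, against 9.48% and 9.51% of all genes. Wt1, which is among the higher, passed the filter through KO replicates alone. The part of these granulosa levels in the values of the listed genes was not tested.

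Markers of other cells differed among themselves. Insl3, of theca cells, and the haemoglobin genes Hbb-bs, Hbb-bt and Hba-a2 had no count in any library, Hba-a1 had at most 0.0166 CPM, and Cyp17a1, the androgen-making enzyme of theca cells, at most 0.0829 CPM. The stromal genes Dcn, Nr2f2 and Pdgfra were present at up to 2.93, 3.19 and 3.48 CPM. The 14 theca and stroma genes summed to 6.44 ± 1.26 CPM in Padi6 KO and 6.51 ± 0.272 CPM in Padi6 het, and to 4.6 ± 0.605 CPM in Tle6 KO and 7.92 ± 1.16 CPM in Tle6 het. The 12 blood, immune and endothelial genes summed to 22.3 to 35.3 CPM by library, of which Pecam1 made 18.2 to 30.6 CPM and Kdr 0.624 to 6.88 CPM, and the other 10 summed to 0.516 CPM or less. In the theca list 6 and 8 genes were tested in the Padi6 and Tle6 lines and none passed by edgeR. At an unadjusted p under 0.05, 1 was higher and 1 lower in the Padi6 line, where 9.45% and 9.19% of all genes were. In the Tle6 line 1 was higher and 5 lower at that level, where 9.48% and 9.51% of all genes were. Col3a1, which is among the 5, passed the filter through the het replicates alone. The part of the theca levels in the values of the listed genes was not tested. No gene of the blood list passed in either line (0 at an unadjusted p under 0.05), nor did any of the 13 oocyte genes, which summed to 21300 ± 1460 CPM in Padi6 KO and 21000 ± 759 CPM in Padi6 het, and to 17300 ± 913 CPM in Tle6 KO and 15400 ± 66.4 CPM in Tle6 het. The receptors on which the secreted ligands act stood at 557 ± 24.2 CPM in Padi6 KO and 495 ± 30.8 CPM in Padi6 het, and at 618 ± 99.6 CPM in Tle6 KO and 843 ± 19.8 CPM in Tle6 het, with 0 of 8 tested genes passing by edgeR in each line, where 2.41% and 1.62% of all genes did. At an unadjusted p under 0.05, 2 receptors were higher in the Padi6 line, against 9.45% of all genes, and 3 lower in the Tle6 line, against 9.51%. Between the hets, where 28.5% of all genes passed, so did 5 of these 8 receptors (Acvr2a, Bmpr1a, Bmpr1b and Bmpr2 higher and Acvr2b lower in the Tle6 line), 2 of 18 other granulosa genes (Esr2 higher and Gata6 lower), 0 of 4 cumulus expansion genes, 2 of 8 theca and stroma genes (Pdgfra higher and Acta2 lower), 0 of 3 blood list genes and 6 of 13 oocyte genes.

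Neighbouring genes are given because no label or header states whether counting used the strand. Has2os, on the strand opposite to Has2, had at most 0.0688 CPM, Foxl2os at most 0.0879 CPM, and Gm48444 and B230303A05Rik, opposite to Inhba, at most 0.0688 and 0.1 CPM. Gm17322, which overlaps Cyp11a1 on the same strand, had 1.77 to 8.83 CPM, within the range of Cyp11a1 itself, so reads of the pair may have been divided or left out. Prr13, within 5 kilobases of Amhr2 on the same strand, had 23.6 to 57.9 CPM, and Sf3a2, beside Amh, 1.51 to 11.5 CPM, both far above the listed gene next to them. Of the other neighbours within that distance, Obsl1 (by Inha) had 0.12 to 0.771 CPM, Ccdc33 (by Cyp11a1) 0.148 to 1.76 CPM, Jsrp1 (by Amh) at most 0.115 CPM and Gldnos (by Cyp19a1) at most 0.0674 CPM, while Gm15181 (by Inha) and Gm24128 (by Amhr2) had no count.

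The genes most like the list were sought by the correlation over the 12 biological replicates, within groups, of log2 CPM with the mean of the 10 genes, among 11471 protein-coding genes. The highest were Cdkn1c (r = 0.935), Serbp1 (0.908), Foxk1 (0.908), Elmsan1 (0.893) and 2210408I21Rik (0.882). Within the list itself the correlation with the mean, of which each gene is a part, was 0.82 for Inha, 0.72 for Amh, 0.69 for Inhba, 0.66 for Amhr2, 0.62 for Foxl2 and 0.49 for Cyp11a1, but -0.04 for Nr5a2, -0.05 for Fshr, -0.51 for Cyp19a1 and -0.64 for Has2. The genes share the same libraries and their depth, and these correlations are a description of 12 samples. Taking out the means of the 4 groups leaves fewer than 12 free values. The genes named were picked as the highest of 11471, so large values can arise without a link, and no test was made. Has2 and Cyp19a1 were the genes with clearly negative values.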

How the data were processed

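Polyadenylated RNA of 15 oocytes per library was prepared with a QIAseq FX single-cell kit, per the labels. The files deposited by the authors hold raw read counts per gene, 1 table a library. The submitters' processing notes name bcl2fastq 2.20.0.422, cutadapt 2.8, STAR 2.7.8a, HTSeq 2.0.2 and mm39; annotation release and strand setting: not given in the sources used here. Bracketed names in the titles say WT where title and genotype say heterozygote, and these samples are called het. Lines with no gene stayed out of library sizes: reads in no feature were 5.39 to 7.29% of a table, ambiguous reads 3.85 to 4.2% and multiply aligned reads 12.09 to 14.51%, and 92 spike-ins were left out as well. Symbols came from GENCODE M21 (52147 identifiers matched, 1553 not); it is on GRCm38, so it served for names, types, exonic lengths and which genes neighbour each other, and none of its coordinates are printed.

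Counts of technical libraries were added. The quasi-likelihood test of edgeR 4.0.16 in R 4.3.3 (TMM, filterByExpr, robust, two-sided) was fitted to each line by itself, and to all 12 replicates for the difference of effects and the comparison of hets. P-values were adjusted by Benjamini-Hochberg over every gene in the fit, and 0.05 was the threshold. CPM are counts-per-million of gene counts, without TMM; replicate values come from added counts. Levels per length use the exonic length of the annotation. The fitting was checked on simulated counts. Alternatives were RLE scaling, no filter, DESeq2 1.42.0, a replicate block, other uses of technical libraries and each replicate left out in turn. The 10 genes and all lists were chosen with earlier results of these data known. Genes are named if they are on the list, are targeted, overlap a listed gene or lie within 5 kilobases, pass between KO and het on another list (none did), or are among the 5 most correlated; the genes of other lists that the text names were chosen after their values were seen.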

Additional observations from a re-analysis of the deposited data

Results flagged for a closer look

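Cyp11a1 in Tle6 KO was highest in replicate 2, at 8.63 CPM, and its gap to the next replicate was 0.854 of the range of the group, above Dixon's 95% critical value for 4 samples; 11 sets of values were examined, and chance gives about 1 in 20. The effects of the 2 knockouts differed for Inha (4.63 on the log2 scale, Tle6 minus Padi6) and for Has2 (-2.86) by the test of the difference. Amh was lower in every Padi6 KO than in every Padi6 het replicate (mean in Padi6 het 0.114 CPM). It had 1 to 4 counts in each Tle6 KO replicate (0.022 to 0.055 CPM) and 0 in Tle6 het. A count of 0 allows a level of up to 0.04 to 0.0997 CPM in a single library of the series, and less where 2 libraries are added. The difference between the lines was not tested for Amh. Amhr2 had the same opposite order (mean in Padi6 het 0.559 CPM), and its difference of 5.68 did not pass (adjusted p = 0.056). Spike-in transcripts, on which no comparison rests, had 4009 to 13772 counts in 5 libraries, all of the Padi6 line, and 5 to 45 in the other 10, among them Padi6 het replicate 3 with 40.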

How the results depend on the processing

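In the Padi6 line 440 genes passed, and 1625 without a filter, 1315 with DESeq2, 859 with a replicate block and 61 to 258 with a replicate left out (61 without het 3, 77 without KO 3, 90 without KO 2); 5, 4, 3 and 1 to 2 listed genes passed instead of 1, under the block also Inha (-2.42, adjusted p = 0.0442) and Cyp11a1 (-1.51, 0.0306). Has2 passed in all 10 alternatives (adjusted p 9.47e-20 to 0.0392), and Inha also without het 1 (0.02) and Cyp11a1 without het 2 (0.0416). The labels do not say whether the replicate numbers pair the samples. Same-numbered deviations correlated weakly, at 0.05 to 0.15, which does not settle it. In the Tle6 line 329 genes passed, and 1447 without a filter, 1724 with DESeq2, 57 with a replicate block, 118 with library A alone, 120 without library B of het 2 and 119 to 292 with a replicate left out; 1 listed gene passed without a filter (Amhr2) and 1 with DESeq2 (Inha), and 0 otherwise. For the difference of effects 924 genes passed, and 2078 without a filter, 1973 with DESeq2, 400 with a replicate block, 369 with library A alone, 382 without library B of Tle6 het 2 and 406 to 1465 with a replicate left out; 6, 4, 0, 0, 0 and 0 to 3 listed genes passed instead of 2, both calls being lost under the block (Inha 0.0754, Has2 0.0637), with Amhr2 passing without Tle6 KO 1 (0.0315) or library A of Tle6 het 2 (0.0383). Between the hets 6107 genes passed, and 3534 with library A alone, 3724 without library B and 3953 to 6283 with a replicate left out; 1, 1 and 1 to 3 listed genes passed instead of 2, and 5 without a filter, with DESeq2 or without library A of het 2. Cyp19a1 passed there in all 19 alternatives (0.8 to 1.26), and Nr5a2 also without Tle6 het 2 (0.0131) or Tle6 KO 2 (0.0494) and Cyp11a1 without Tle6 het 1 (0.027). The ratio of summed CPM, KO over het, was 0.978 for Padi6 and 1.122 for Tle6, the second being 1.037 without Nr5a2, 1.009 without library B and 0.999 to 1.28 with a replicate left out.

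Some log2 fold changes turned sign. In the Padi6 line, with a replicate left out, Cyp19a1 ran from -0.17 to 0.14 (0.13 without het 1, 0.14 without KO 2), Inhba from -0.98 to 0.59 (without het 3) and Nr5a2 from -0.01 (without het 3 or KO 1) to 0.07. For Tle6 KO over het, Cyp11a1 ran from -0.75 (without het 2; -0.66 without KO 2) to 2.18, Has2 from -1.15 to 0.14 (without het 2), Nr5a2 from -0.12 (without het 1) to 0.39 and Cyp19a1 from -0.38 to 0.05 (without het 2). With library A alone Cyp11a1 was -0.16 and Has2 0.49, and without library B of het 2 they were -0.14 and 0.36. In the difference, Nr5a2 was 0 without library B and ran from -0.19 (without Tle6 het 1) to 0.35, and Cyp19a1 from -0.39 to 0.06 (without Tle6 het 2). Between the hets, Has2 was -0.66 with library A alone and -0.58 without library B and ran from -0.36 (without Tle6 het 2) to 0.96, and Inhba from -1.27 to 0.13 (without Padi6 het 3). The cause was not tested. The 6 low genes had at most 149 counts in a library, so counting error adds to their spread.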
